A study of Mus musculus with 6 samples.

Results

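NF-kB is a family of transcription factors that links receptors on the T cell surface to genes of activation, survival and inflammation. The genes described here make up the pathway and its feedback: the factor's subunits, the IkB proteins that hold it, the kinases and ubiquitin ligases that release it, and the deubiquitinases that switch it off. They were chosen by name, from a list of 38 symbols drawn up with earlier results of these data known. Of these, 37 were found by symbol among the 38483 genes of the deposited table, and all 37 passed the filter on low counts. The remaining symbol, Otulin, was found only by its gene identifier ENSMUSG00000046034, listed as Fam105b. It is named below beside its partners and is left out of every count.

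RNA came from splenic CD4+CD62L+ mouse T cells of the B10.RIII background that had been isolated with a column kit and grown for 3 days in Th17-polarizing medium. Both genotypes got the same medium, with 10 ng/ml of IL-6, 10 ng/ml of IL-23, 1 ng/ml of TGF-β, and 10 µg/ml each of anti-IFN-γ and anti-IL-4. The groups were IL-17A+/+ wild-type and IL-17A-/- knockout, with 3 stranded mRNA libraries each, numbered 1 to 3 and described in the labels as biological replicates. How the allele was made, the age and sex of the mice, whether cells were pooled and what a number marks are not stated in the labels. IL-17A is the cytokine that Th17 cells are named for, and its receptor itself signals to NF-kB, so the comparison asks what the loss of Il17a does to this pathway in the cells that would make the cytokine.

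In resting cells, IkB proteins mask the NF-kB dimers and keep them in the cytoplasm. In the canonical route, ubiquitin chains built by TRAF, IAP and LUBAC ligases recruit the TAK1 and IKK kinases, IKK marks IkBα for destruction, and dimers such as p50-RelA or p50-c-Rel enter the nucleus. In the noncanonical route, TRAF3 and the IAPs normally keep the kinase NIK low, and NIK, once it accumulates, drives processing of p100 to p52, which pairs with RelB. Several genes of the pathway are themselves NF-kB targets, among them Nfkbia, Tnfaip3, Nfkb2 and Birc3, which closes feedback loops. In T cells the pathway acts below the antigen receptor, CD28 and TNF-family receptors, and c-Rel and RelA are known to take part in Th17 differentiation.

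The sequence that NF-kB dimers bind is the κB consensus motif. It was searched on both strands in the RefSeq promoter windows of build GRCm38.p6, which run from 250 bases before to 50 bases after each annotated start. Of the 37 genes, 32 had a window, and 11 of those (34.4%) held at least 1 match: Bcl3, Cyld, Map3k7, Nfkb2, Nfkbia, Nfkbid, Nfkbie, Rel, Tnfaip3, Tnip1 and Traf3. Of all 32851 windows in the table, 8.46% held a match, and of the 27025 genes, 9.55% did. A match is a description of letters and not evidence of binding. The following stretches hold the motif in some of these genes. Not every match is printed, and those of Bcl3, Cyld, Map3k7 and Traf3 are left out. The stretches shown were picked after the values were seen. They run 5′ to 3′ on the gene's strand and carry the match, or overlapping matches, in capitals. They are reference sequence and not read from these mice.
Nfkbia, chr12:55492657-55492686, minus strand: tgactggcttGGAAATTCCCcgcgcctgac
Nfkbid, chr7:30422170-30422199, plus strand: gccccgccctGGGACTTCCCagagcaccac
Nfkbid, chr7:30422215-30422244, plus strand: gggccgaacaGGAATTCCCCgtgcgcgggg
Nfkbie, chr17:45555584-45555613, plus strand: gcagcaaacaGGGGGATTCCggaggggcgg
Nfkb2, chr19:46304688-46304718, plus strand: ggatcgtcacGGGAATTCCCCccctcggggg
Rel, chr11:23771041-23771071, minus strand: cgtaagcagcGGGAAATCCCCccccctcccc
Tnfaip3, chr10:19015516-19015545, minus strand: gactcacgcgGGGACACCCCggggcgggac
Tnip1, chr11:54962977-54963008, minus strand: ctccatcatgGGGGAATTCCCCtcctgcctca

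Totals ran from 47335736 to 49743762 estimated counts a library. Il17a, at 107.8 to 211.1 CPM (counts scaled to library size) in the wild-type libraries, was at 1.11, 0 and 0.0202 CPM in knockout 1, 2 and 3, and the count of 0 allows up to 3 counts. Libraries of the same number resembled each other across genes, and the numbers were taken to pair the libraries. Several libraries stood apart. Xist was at 566.8 to 663.7 CPM in the wild-type libraries and knockout 3, and at 2.58 and 0 CPM in knockout 1 and 2. The Y-linked genes Eif2s3y and Ddx3y were at 110.3 and 44.5 CPM in knockout 1 and at 150.4 and 38.0 CPM in knockout 2, and at 0 to 0.452 CPM in the other libraries. The sex-linked genes thus differed between genotypes in pairs 1 and 2 but not in pair 3, and in those 2 pairs sex and genotype cannot be told apart. Both number 1 libraries held the most RNA of CD8 T cell markers, with all 5 markers measured and summed at 512.3 and 803.8 CPM against 89.5 to 151.7 in the others. The 10 B cell markers summed to 149.5 to 357.2 CPM in wild-type against 334.4 to 763.8 CPM in knockout. The 10 myeloid markers summed to 82.0 to 393.4 and 135.8 to 648.2 CPM, with Adgre1 and Fcgr1 under 1 CPM throughout, and the 5 NK markers to 81.5 to 315.9 and 159.7 to 582.2 CPM, with Ncr1 under 1 CPM. The list of CD4 T cell markers holds Cd3e, Cd3g, Trac and Lck, which CD8 T cells share, so Cd4 is given alone. Cd4 was at 523.5, 579.6 and 490.5 CPM in wild-type against 245.7, 633.8 and 379.6 CPM in knockout. In knockout 1 it was lowest, and Cd8a was at 425.4 CPM there. In bulk RNA, fewer cells of a type and less RNA per cell cannot be told apart. The part of these markers in the results below was not tested.

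The pathway was expressed across a wide range. Levels between genes were compared per length, as TPM (counts divided by the deposited transcript length and scaled to 1 common sum). The mean over the 6 libraries ran from 262 TPM for Traf1, an adaptor induced by NF-kB, to 1.12 TPM for Tab3, an adaptor of the TAK1 kinase.

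**Figure D1:**
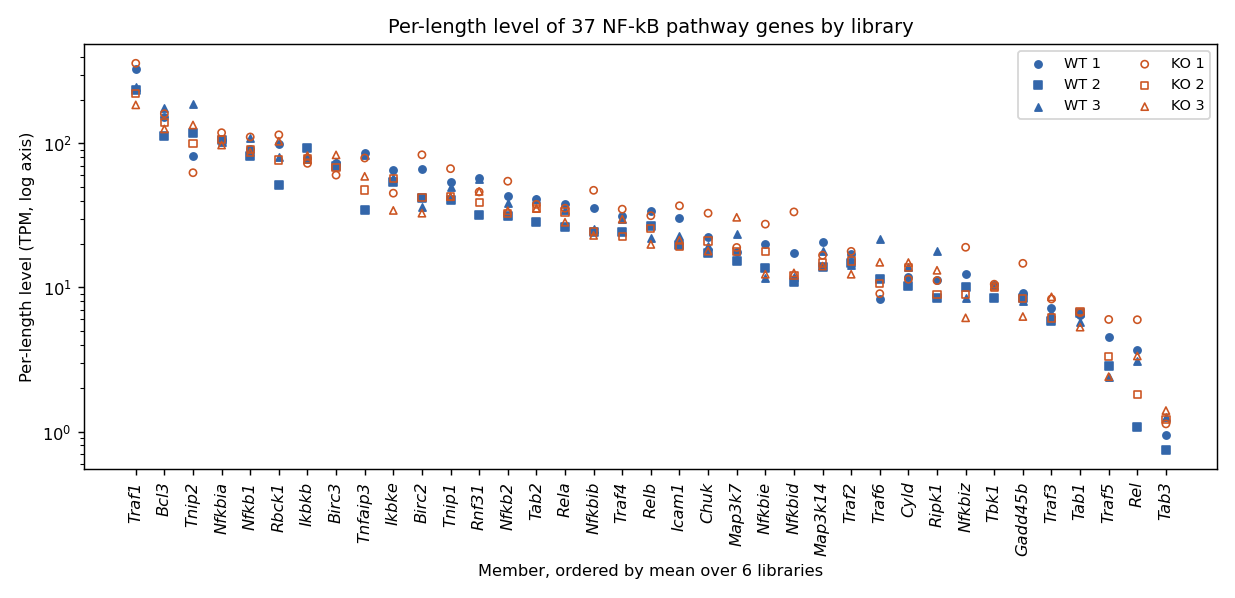
Per-length level (TPM, log axis) of the 37 genes in each library, ordered by the mean over 6 libraries, with filled symbols for wild-type and open symbols for knockout and 1 shape per replicate number. Traf1 lies above all others at 184.7 to 358.9 TPM, Tab3 lies lowest, and filled and open symbols overlap for nearly every gene.

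Traf1 had per-length levels of 328.3, 234.2 and 245.1 TPM in wild-type 1, 2 and 3 and of 358.9, 220.8 and 184.7 TPM in the knockout libraries. Bcl3, an atypical IkB protein that works with p50 and p52 in the nucleus, had 153.3, 113.2 and 174.8 TPM in wild-type and 160.5, 139.8 and 125.7 TPM in knockout. Tnip2, a ubiquitin-binding partner of A20, came next with 81.7, 118.0 and 185.9 TPM in wild-type and 62.5, 100.3 and 134.0 TPM in knockout. Traf1 and Bcl3 were the only neighbours in the order whose levels did not overlap over the 6 libraries. Tab2 and Rela, Tab1 and Traf5, and Rel and Tab3 had overlapping ranges but stood in the same order in all 6 libraries. For the other neighbours the order changed between libraries. Nfkbia, encoding IkBα, lay between 97.2 and 118.4 TPM in all libraries. Nfkb1, encoding p105 and p50, lay between 81.9 and 110.6 TPM, and Rbck1, encoding the LUBAC subunit HOIL-1, between 51.2 and 114.5 TPM. At the low end, Traf5 lay between 2.40 and 5.99 TPM, Rel between 1.08 and 5.97 TPM, and Tab3 between 0.749 and 1.40 TPM. Genes for the same step thus differed widely in level.

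Within a library, the per-length level of Nfkb1 was 2.40 to 3.19 times that of Rela and 18.5 to 75.9 times that of Rel. The ratios here were taken over all transcripts of a gene, and none was worked out over protein-coding transcripts alone. Those held 58.55% to 81.18% of the Nfkb1 counts, against at least 99.9% for Rela and Rel. The ratio of Rela to Rel had its lowest value, 5.94, in knockout 1 and its highest, 24.5, in wild-type 2. Nfkb2 was at 1.18 to 1.75 times the level of its partner Relb. Ikbkb, for IKKβ, was at 2.22 to 5.35 times the level of Chuk, for IKKα. Protein-coding transcripts held 41.0% to 56.1% of the Ikbkb counts and 73.8% to 85.4% of the Chuk counts. Among the TAK1 adaptors, Tab2 was 25.2 to 42.9 times as high per length as Tab3 and 4.25 to 7.05 times as high as Tab1. Traf1 was 59.9 to 102 times as high as Traf5. Birc3 and Birc2, which encode the closely related ligases cIAP2 and cIAP1, had no fixed order: their ratio was 0.723 in knockout 1 and 2.54 in knockout 3. The 37 genes were summed over 170 deposited transcripts. Of the 27 genes with more than 1 transcript, 14 had 1 transcript that held above 50% of the gene's counts in every library.

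Between genotypes, none of the 37 genes passed the main test, edgeR's quasi-likelihood test without a block at an adjusted p under 0.05, and none had an unadjusted p under 0.05 in it. The test called 0% of the 15121 genes, with 1.67% at an unadjusted p under 0.05. With the replicate number as a block, edgeR called 0 of the 37 (0% of all genes) and put 5 of them (13.5%) at an unadjusted p under 0.05, against 9.73% of all genes. These were Rel and Nfkbie, higher in knockout, and Ikbke, Rnf31 and Tnip2, lower. DESeq2 without the block called 0 of the 37, against 0.086% of all genes. DESeq2 with the block called 1 of the 37 (2.70%), Tnip2, against 2.52% of all genes in either direction and 1.5% lower in knockout. That share lies near the background.

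**Figure D2:**
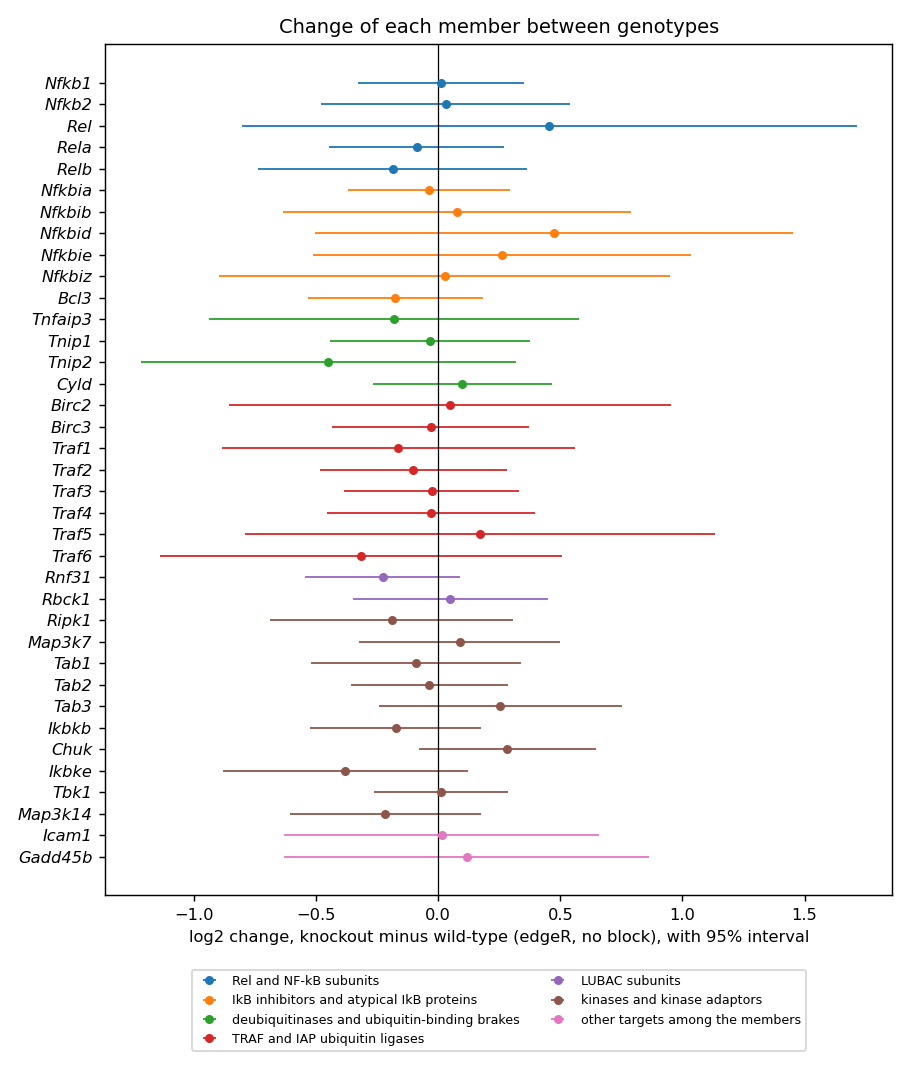
Log2 change of each gene, knockout minus wild-type, from edgeR without a block, with 95% intervals, in order of role. Every interval crosses 0, and those of Rel, Nfkbid and Traf5 are the widest.

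At the median, the changes were smaller than those of all genes tested. Here and below, all genes were not matched to the 37 in level, on which the spread can depend. The median absolute log2 change was 0.10 for the 37 genes and 0.17 for all genes tested, and the median standard error was 0.18 against 0.27. The median signed change was -0.03, against 0.01. For 31 of the 37 genes the 95% interval of the main test, without the block, lay inside a 2-fold change in either direction. The 6 others were Rel, Nfkbid, Nfkbie, Tnip2, Traf5 and Traf6. For 18 genes the interval lay inside 1.5-fold. A log2 change above 0 was found for 17 of 37 genes (45.9%), against 52.4% of all genes. The values of the 3 knockout and 3 wild-type libraries did not overlap for 2 genes, Chuk above and Rnf31 below (5.41%, against 6.14% of all genes). In all 3 same-number pairs, 6 genes were higher in knockout (16.2%, against 16.6%): Chuk, Nfkbid, Nfkbie, Rel, Tab3 and Traf5. Another 11 were lower in all 3 pairs (29.7%, against 16.7%): Ikbkb, Ikbke, Map3k14, Relb, Ripk1, Rnf31, Tab1, Tnip2, Traf1, Traf2 and Traf6. No test was made of that share, since genes of 1 pathway do not vary independently.

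Of the subunits, none passed any of the tests, and 3 of 5 had a log2 change above 0. Rel encodes c-Rel, the subunit most restricted to lymphoid and myeloid cells. It was at 11.3, 3.70 and 8.86 CPM in wild-type 1, 2 and 3 and at 17.2, 5.40 and 10.1 CPM in the knockout libraries. Each knockout library was above the wild-type library of its number, but the groups overlapped widely, since number 2 was low and number 1 high in both. The log2 change was 0.45 (SE 0.53, 95% interval -0.80 to 1.71), with pair values of 0.59, 0.49 and 0.17. Blocked DESeq2 gave an adjusted p of 0.449. Nfkb1 was at 281.3, 281.3 and 329.2 CPM in wild-type against 333.7, 271.9 and 293.4 CPM in knockout, with a log2 change of 0.01 (95% interval -0.33 to 0.35). Its groups lay over each other. Nfkb2, for p100 and p52, ran from 105.9 to 172.3 CPM with a log2 change of 0.03. Rela, for the main transactivating subunit, ran from 82.6 to 112.7 CPM with a log2 change of -0.09. Relb, the noncanonical partner, ran from 48.0 to 83.7 CPM, was lower in knockout in each pair, and had a log2 change of -0.19 (SE 0.23).

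**Figure D3:**
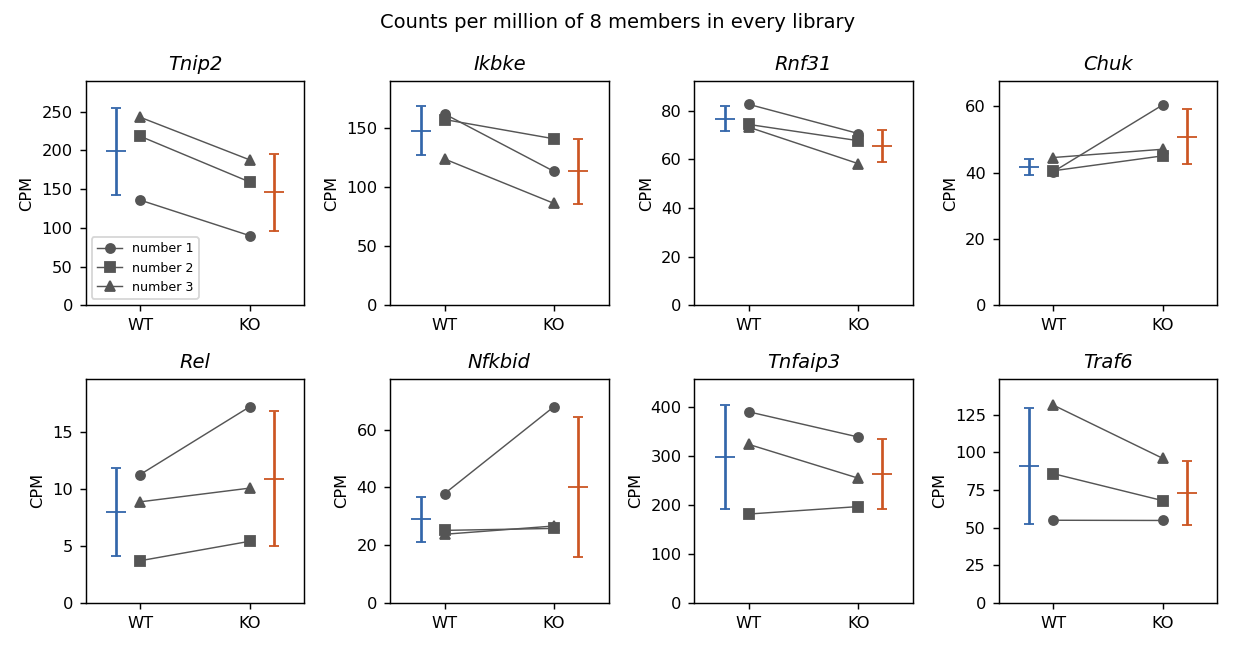
CPM of 8 genes in every library, with lines joining libraries of the same number and, at the sides, the mean and SD of each genotype (n = 3). The lines for Tnip2, Ikbke and Rnf31 all run down and those for Rel, Chuk and Nfkbid all run up, while the groups overlap for all but Rnf31 and Chuk. Tnfaip3 was added after its values were seen.

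Among the IkB genes, 0 of 6 passed a test. Nfkbia, the feedback inhibitor whose promoter match is printed above, was at 181.3, 203.2 and 164.0 CPM in wild-type against 192.1, 177.9 and 164.6 CPM in knockout. Its log2 change was -0.04 (SE 0.14, 95% interval -0.37 to 0.29). The groups lay over each other. Nfkbid encodes IkBNS, an atypical nuclear IkB with a known part in Il2 and Foxp3 expression in T cells. It was at 37.8, 25.1 and 23.8 CPM in wild-type against 68.0, 25.8 and 26.6 CPM in knockout. The difference lay mostly in number 1, with pair values of 0.84, 0.04 and 0.16 and a log2 change of 0.47 (SE 0.41). Without knockout 1 alone, the unblocked fit gave a log2 change of -0.15, and without both number 1 libraries blocked DESeq2 gave 0.11, against 0.34 with them. Nfkbie, for IkBε, ran from 28.6 to 68.5 CPM, was higher in knockout in each pair, and had a log2 change of 0.26 (SE 0.33). Nfkbib, for IkBβ, ran from 30.7 to 60.9 CPM with a log2 change of 0.08, and its span shares 778 bases with Sirt2 on the opposite strand. Nfkbiz encodes IkBζ, a nuclear IkB with a known role in Th17 differentiation. It ran from 23.6 to 67.6 CPM, both extremes in knockout, with a log2 change of 0.03 (SE 0.39) and pair values of 0.49, -0.39 and -0.36. Bcl3 was at 153.6, 132.8 and 139.6 CPM in wild-type against 125.4, 144.0 and 107.9 CPM in knockout. Pair 2 ran against pairs 1 and 3, and the log2 change was -0.18 (SE 0.15).

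Among the brakes, Tnip2 was the gene that passed a test in 1 of the 4 fits. It encodes ABIN-2, which binds ubiquitin chains and A20 and also stabilizes the kinase TPL2. The gene (ENSMUSG00000059866) lies on the minus strand of chr5:34496087-34513997 in GRCm38. It was at 135.8, 218.3 and 242.8 CPM in wild-type 1, 2 and 3 and at 89.9, 159.2 and 187.8 CPM in knockout 1, 2 and 3. Each knockout library was below the wild-type library of its number, while the groups overlapped, with number 1 lowest in both. The means were 199 ± 56.1 CPM in wild-type against 146 ± 50.3 CPM in knockout (SD, n = 3). Without the block, edgeR gave a log2 change of -0.45 (SE 0.32, 95% interval -1.22 to 0.32) and an adjusted p of 0.9999. With the block, edgeR gave -0.47 (SE 0.10) and an adjusted p of 0.366, and DESeq2 gave -0.48 (SE 0.11) and an adjusted p of 0.00132. The pair values were -0.59, -0.45 and -0.37. The call was lost without number 1 (adjusted p = 0.286) and without number 3 (adjusted p = 0.226) in blocked DESeq2, and kept without number 2 (adjusted p = 0.0455). The log2 changes in these fits on 2 pairs were -0.41, -0.53 and -0.50, close to that with all 3.

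The counts of Tnip2 were spread over more than 1 kind of transcript. Shares of transcripts with common sequence are estimates, and no fit was made on the retained-intron transcript alone. Protein-coding transcripts held 51.6% to 57.7% of the gene's counts in every library, and a retained-intron transcript 25.5% to 33.6%. Over protein-coding transcripts alone, a fit added after the data were seen, blocked DESeq2 gave a log2 change of -0.51 (SE 0.14, adjusted p = 0.0167). In number 3, where Xist was high in both libraries, the pair value was -0.37. The part of sex and of other cell types in the difference was not tested. The 250 reference bases before the RefSeq start of Tnip2 are printed because it is the gene of the 37 that passed a test. They have a GC content of 63.2% and hold 0 matches to the κB consensus, and their 3′ end overlaps the 5′ end of the deposited gene span.
Tnip2, chr5:34513980-34514229, minus strand: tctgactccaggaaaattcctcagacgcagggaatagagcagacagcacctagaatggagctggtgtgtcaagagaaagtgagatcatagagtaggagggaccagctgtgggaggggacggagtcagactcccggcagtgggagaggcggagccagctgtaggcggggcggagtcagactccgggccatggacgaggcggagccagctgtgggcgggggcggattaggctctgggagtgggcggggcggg

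The other brakes did not pass a test. Tnfaip3 encodes A20, the ubiquitin-editing enzyme that ends the signal and is a strong NF-kB target. It was at 390.4, 181.7 and 323.9 CPM in wild-type against 339.0, 196.9 and 254.8 CPM in knockout. Number 2 was lowest in both genotypes, the groups overlapped, and the log2 change was -0.18 (SE 0.32, 95% interval -0.94 to 0.58). Tnip1, for the A20 partner ABIN-1, ran from 118.5 to 165.1 CPM with a log2 change of -0.03. Cyld, a deubiquitinase that trims K63-linked and linear chains, ran from 93.2 to 127.0 CPM with a log2 change of 0.10. The deubiquitinase of linear chains, Otulin, ran from 64.3 to 104.1 CPM with a log2 change of -0.03. Within a library, the per-length level of Tnfaip3 was 3.37 to 7.32 times that of Cyld.

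Of the 8 TRAF and IAP genes, 0 passed a test and 2 had a log2 change above 0. Traf1 was at 556.7, 426.1 and 332.9 CPM in wild-type against 551.8, 353.5 and 269.6 CPM in knockout. Its log2 change was -0.16 (SE 0.30), with pair values of -0.01, -0.27 and -0.30, and the numbers spread it further than the genotypes did. Traf6 encodes the ligase below the IL-1, Toll-like and IL-17 receptors. It was at 54.8, 85.7 and 131.2 CPM in wild-type against 54.7, 67.9 and 95.9 CPM in knockout. The number 1 libraries were level with each other and the lowest of the 6, and the log2 change was -0.32 (SE 0.35). Traf5, an adaptor of TNF-family receptors, was at 9.69, 6.83 and 4.83 CPM in wild-type against 12.1, 6.89 and 5.06 CPM in knockout, with a log2 change of 0.17 (SE 0.41). Its 2 groups lay nearly over each other outside number 1. Traf2, which brings the IAPs to the receptor, ran from 30.8 to 42.5 CPM with a log2 change of -0.10. Traf3, which brings NIK to the same complex for destruction, ran from 41.9 to 55.2 CPM with a log2 change of -0.03. Traf4 ran from 49.4 to 75.6 CPM with a log2 change of -0.03. Birc2 ran from 110.0 to 267.9 CPM and Birc3 from 99.7 to 143.0 CPM, with log2 changes of 0.05 and -0.03.

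The LUBAC ligase builds linear ubiquitin chains. Rnf31 encodes its catalytic subunit HOIP and was at 82.6, 74.3 and 73.2 CPM in wild-type against 70.6, 67.7 and 58.2 CPM in knockout. All 3 knockout libraries lay below all 3 wild-type libraries, by a narrow gap. The log2 change was -0.23 (SE 0.13, 95% interval -0.55 to 0.09, adjusted p = 0.9999), and blocked DESeq2 gave an adjusted p of 0.418. The gene's span shares 123 bases with Irf9 on the same strand, so some reads may be split between them. Its partner Rbck1 was at 148.2, 120.9 and 110.7 CPM in wild-type against 149.4, 115.5 and 128.4 CPM in knockout, with a log2 change of 0.05 (SE 0.17). Over protein-coding transcripts alone, 55.9% to 70.1% of its counts, that change was -0.12.

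Of the 10 kinases and kinase adaptors, 0 passed a test in the 4 fits, and 4 had a log2 change above 0. Ikbke encodes IKKε, an IKK-related kinase. It was at 161.9, 157.2 and 123.8 CPM in wild-type against 113.3, 140.9 and 86.2 CPM in knockout. Each knockout library was below its wild-type partner, and knockout 2 overlapped the wild-type range. The log2 change was -0.38 (SE 0.21, 95% interval -0.88 to 0.12). Blocked DESeq2 gave -0.41 (SE 0.13) and an adjusted p of 0.0617, which was 0.0176 without number 2. Tbk1, the closest relative of IKKε, was the steadiest of the 37 genes over the libraries, at 34.1, 31.2 and 32.4 CPM in wild-type against 32.8, 32.4 and 33.2 CPM in knockout. Its coefficient of variation was 2.98%, against a median of 22.1% over all genes, and its log2 change was 0.01 (95% interval -0.26 to 0.28).

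The catalytic IKK subunits had log2 changes of opposite sign, and neither passed a test. Chuk was at 40.3, 40.5 and 44.5 CPM in wild-type against 60.4, 45.0 and 47.0 CPM in knockout. All knockout libraries lay above all wild-type libraries, with 2 of the 3 just above, and the log2 change was 0.28 (SE 0.15, 95% interval -0.08 to 0.64). Without knockout 1 the log2 change was 0.13. Ikbkb was at 228.2, 298.1 and 246.2 CPM in wild-type against 214.2, 232.1 and 238.6 CPM in knockout, with a log2 change of -0.17 (SE 0.15). Protein-coding transcripts held only 41.0% to 56.1% of the Ikbkb counts, and over those alone the change was 0.03. Map3k14 encodes NIK, the kinase that starts the noncanonical route. It was at 83.3, 59.3 and 61.2 CPM in wild-type against 61.1, 57.2 and 57.2 CPM in knockout, with wild-type 1 above the rest and a log2 change of -0.22 (SE 0.16). Tab3, which lies on the X chromosome, was at 6.59, 5.84 and 7.40 CPM in wild-type against 7.39, 8.16 and 8.10 CPM in knockout. Its log2 change was 0.25 (SE 0.21), and in number 3, where both libraries had Xist, the pair value was 0.12.

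The remaining kinase genes had small log2 changes. Map3k7, for TAK1, ran from 65.6 to 92.1 CPM with a log2 change of 0.09. The log2 changes of its adaptor genes Tab1 and Tab2 were -0.09 and -0.04. Ripk1, the scaffold kinase of the TNF receptor complex, ran from 40.3 to 68.1 CPM with a log2 change of -0.19, and shares 432 bases with Serpinb6a on the opposite strand. Icam1, an adhesion molecule, and Gadd45b, a stress-response protein, entered the list as targets of the pathway. Icam1 ran from 51.8 to 96.3 CPM with a log2 change of 0.01, and Gadd45b from 8.54 to 19.1 CPM with a log2 change of 0.12. In both, the highest value was in knockout 1.

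The replicate number accounted for more of the spread than the genotype in 33 of the 37 genes (89.2%, against 84.6% of all genes tested). The number has 2 degrees of freedom and the genotype 1, so the shares are to be read against all genes. On log2(CPM + 0.5), the number held a median of 81.0% of the sum of squares and the genotype 6.08%, against 65.6% and 8.85% over all genes. The exceptions were Bcl3, Rnf31, Tab3 and Chuk. For Rnf31 the genotype held 56.8% and for Tab3 58.9%, while for Tnip2 it held 24.8% and the number 74.3%.

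**Figure D4:**
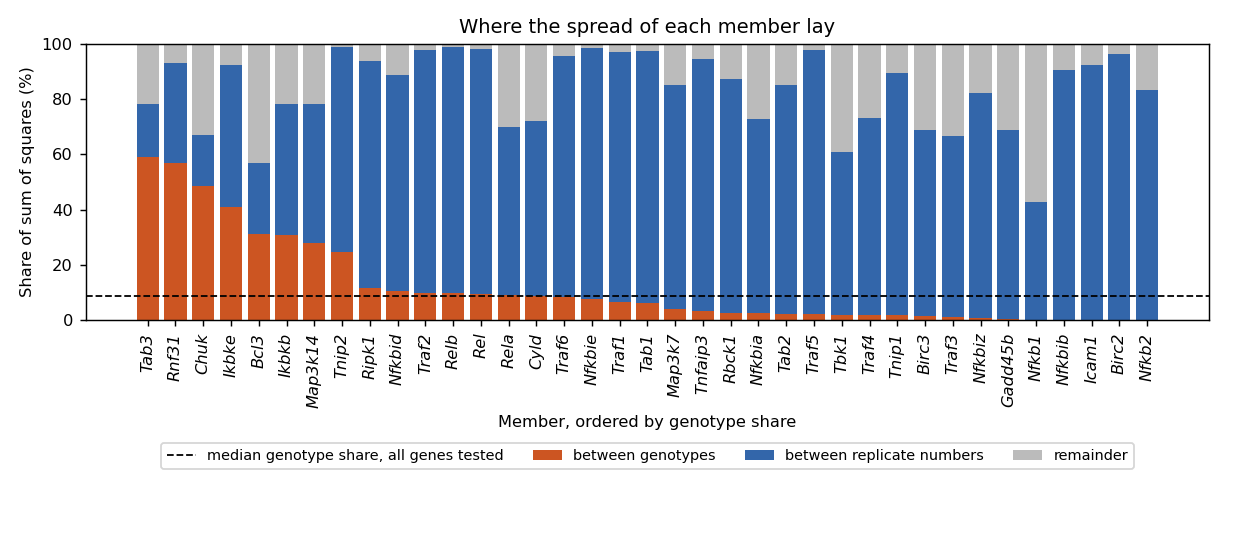
Share of the sum of squares (percent) of each gene's log2(CPM + 0.5) over 6 libraries that lay between genotypes (orange), between replicate numbers (blue) and in the remainder (grey), ordered by the genotype share. The dashed line marks the median genotype share over all genes tested, 8.85%, and most blue segments exceed the orange ones.

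Both number 1 libraries were above the other 4 in 17 of the 37 genes (45.9%, against 15.9% of all genes tested). They were Birc2, Icam1, Nfkb2, Nfkbib, Nfkbid, Nfkbie, Nfkbiz, Rbck1, Rel, Rela, Tnfaip3, Tnip1, Traf1, Traf2, Traf3, Traf4 and Traf5. The mean of the number 1 libraries over that of the others was 2.09 for Nfkbid, 2.03 for Rel, 1.87 for Birc2, 1.85 for Traf5 and 1.75 for Nfkbiz. By role, these were 3 of 5 subunits, 4 of 6 IkB genes, 6 of 8 TRAF and IAP genes, 2 of 4 brakes, 1 of 2 LUBAC genes, 1 of 2 other targets and 0 of 10 kinases and kinase adaptors. Both number 1 libraries were below the others in 5 genes (13.5%, against 14.3%): Birc3, Ikbkb, Map3k7, Tnip2 and Traf6. The ratio was 0.559 for Tnip2 and 0.575 for Traf6. Of the 11 genes with a κB match in the promoter window, 7 were above in both number 1 libraries, and of the 21 with a window and no match, 9 were. No test was made of this split, and the share over all genes with a match was not worked out. The same 2 libraries had the highest sums of CD8 and NK markers, given above. In wild-type 1 and knockout 1 the NK sum was mostly Klrd1 (196.5 and 333.0 CPM) and Klrk1 (102.5 and 220.5 CPM). Ncr1 (0.123 and 0.0978 CPM) and Klrb1c (0.842 and 0.645 CPM) were low there. The part of cells with these CD8 and NK markers in the levels of the pathway genes was not tested. Summed over the 37 genes, the libraries had 4244, 3780 and 3775 CPM in wild-type against 4229, 3451 and 3431 CPM in knockout.

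**Figure D5:**
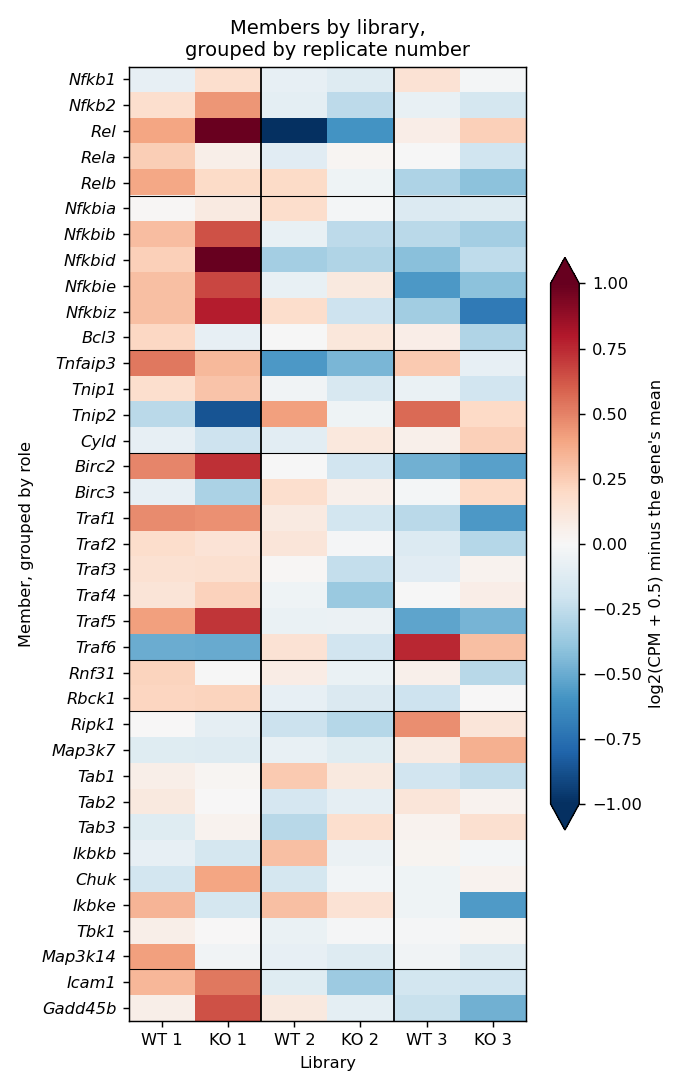
Log2(CPM + 0.5) of each gene in each library minus the gene's mean over 6 libraries, with the libraries set side by side by replicate number and the genes grouped by role. Red marks values above the mean and blue below, and the first pair of columns, number 1, is red for most subunit, IkB, TRAF and IAP genes and blue for Tnip2 and Traf6.

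Genes up and downstream of these 37 were read from 4 lists, none of which had a gene called by edgeR with or without the block or by DESeq2 without it. With the block, DESeq2 called 1 of 24 receptor and adaptor genes, against 1.02% of all genes higher and 1.5% lower. This was the receptor Tnfrsf18 (GITR), lower in knockout. It was at 470.2, 860.5 and 599.8 CPM in wild-type against 374.0, 516.0 and 436.7 CPM in knockout (log2 change -0.52, SE 0.12, adjusted p = 0.00206). The ranges overlapped at 1 library, knockout 2. The median log2 change of that list without the block was 0.07. Of the 13 ligand genes tested, DESeq2 with the block called 2 higher and 1 lower, against 1.02% and 1.5% of all genes. Tnfsf4 (OX40L) was at 10.3, 1.71 and 4.64 CPM in wild-type against 25.1, 3.48 and 6.29 CPM in knockout (adjusted p = 0.0313). Il1b was at 3.26, 5.37 and 0.418 CPM in wild-type against 10.1, 10.1 and 3.28 CPM in knockout (adjusted p = 0.00207). Tnfsf14 (LIGHT) was at 30.3, 37.8 and 41.3 CPM in wild-type against 19.1, 29.5 and 29.1 CPM in knockout (adjusted p = 0.0230). Of these 3, only Tnfsf14 had groups that did not overlap. The 24 other kinase, ubiquitin and inhibitor genes had 0 calls in the 4 fits and a median log2 change of -0.06. The smallest unadjusted p among them was that of Ube2n, which encodes the K63-specific E2 enzyme Ubc13 (log2 change 0.19, SE 0.13).

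Of 32 further NF-kB target genes, DESeq2 with the block called 5 higher and 0 lower in knockout, against 1.02% higher and 1.5% lower among all genes, and the median log2 change without the block was 0.13. Ccl4, a chemokine of activated lymphoid and myeloid cells, was at 80.1, 12.1 and 20.3 CPM in wild-type against 159.3, 21.7 and 46.2 CPM in knockout (log2 change 1.00, SE 0.13, adjusted p = 1.88e-10). Its relative Ccl3 was at 35.1, 11.1 and 7.02 CPM in wild-type against 94.7, 16.6 and 17.4 CPM in knockout (adjusted p = 3.01e-05). Both were highest in the number 1 libraries and higher in each knockout library than in its partner. The survival gene Bcl2a1b was at 53.2, 21.5 and 11.8 CPM in wild-type against 143.2, 38.5 and 33.3 CPM in knockout (adjusted p = 9.18e-10). Bcl2a1d was called too (adjusted p = 1.13e-05), and the split of reads between these near-identical copies is uncertain. Ptgs2, for the prostaglandin synthase COX-2, was at 1.75, 0.428 and 0.355 CPM in wild-type against 4.42, 1.90 and 1.07 CPM in knockout (adjusted p = 0.0256). The sums of B cell, myeloid, NK and CD8 markers were also higher in each knockout library than in the wild-type library of its number, and 5 of 10, 4 of 8, 2 of 5 and 2 of 5 of their tested genes were called higher in the same fit. Their part in the target, ligand and receptor genes was not tested.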

How the data were processed

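The genes and lists were chosen with earlier results of these data known. The authors deposited an estimated count for every transcript and library, made with Bowtie2 2.1.0 and eXpress 1.3.1 on GRCm38 per the submitters' processing notes. The annotation release is not given in the sources used here. The deposited table also gives transcript length and GC content as a fraction, per the file headers. GC content entered no test.

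Counts of 93480 transcripts were summed over 38483 genes and rounded. No per-sample column was left unused, and 0 rows named no gene. TPM used the deposited lengths. CPM used TMM-scaled library sizes. The main test was edgeR 4.0.16's quasi-likelihood test in R 4.3.3, with TMM, filterByExpr defaults and no block, on 15121 genes, with Benjamini-Hochberg adjustment at 0.05. edgeR with the replicate number as a block, and DESeq2 1.42.0 without and with it, were alternatives. Of the 15121 genes, 14241 had an adjusted p in blocked DESeq2. Tables and figures used Python 3.11.15, numpy 2.4.6, pandas 2.3.3 and matplotlib 3.10.9.

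Deviations from the group mean correlated across genes at 0.48, 0.33 and 0.49 for same-numbered libraries and at -0.13 to -0.36 otherwise, and on that ground numbers were treated as pairs. The labels leave the meaning of a number unstated. All pairs of libraries differed by more than sampling noise (chi-square over its degrees of freedom 56.8 to 273.7). A count of 0 allows up to 3 counts, and intervals and floors cover counting error only where they rest on counts.

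Values in every library are given for genes called in any of the 4 fits, the 10 with the smallest unadjusted p in the main test, and the 6 highest and 3 lowest per length. Tbk1 and Tnfaip3 were added after their values were seen. From the other lists, genes called in any fit are named, or the gene with the smallest p. Without the block, the p-values rest on the spread between libraries that the labels call biological replicates. With the block, they rest on the spread that remains once the replicate number is taken out.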

Additional observations from a re-analysis of the deposited data

How the results depend on the processing

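The small number of libraries and their spread by number limit these results. In the main test, without the block, 2-fold changes in Rel, Nfkbid, Nfkbie, Tnip2, Traf5 and Traf6 lie inside the intervals. The standard errors of these genes, in that order, were 0.53, 0.41, 0.33, 0.32, 0.41 and 0.35 there. In edgeR with the block they were 0.16, 0.17, 0.09, 0.10, 0.16 and 0.12. No intervals were worked out with the block. Of all genes, the main test called 0, DESeq2 13, and DESeq2 with the replicate block 381. Single libraries were left out only in the main test, which then gave 0 or 1 calls. Numbers were left out only in DESeq2 with the replicate block, which then gave 149 to 264 calls. Of the 37 genes, DESeq2 with the replicate block called 1, and 0 to 2 with a number left out. The main test called 0 of them, and 0 with any 1 library left out. Over protein-coding transcripts alone, an alternative added after seeing the data, blocked DESeq2 called 285 of all genes and 1 of the 37, and edgeR 0 of either. In DESeq2, the replicate block changed the call of Tnip2 and of no other gene of the 37. In edgeR the block changed no call among them. Of 38 log2 changes (with Otulin), 9 kept their sign in all 17 alternatives, namely Relb, Bcl3, Tnip2, Traf2, Rnf31, Tab3, Chuk, Ikbke and Map3k14. The other 29, none called, had another sign in at least 1 alternative, and the cause was not tested.

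Under DESeq2 without the block, Nfkb1 (-0.0004) and Tbk1 (-0.0011) had the other sign. Under DESeq2 with the replicate block, Nfkb1 (-0.0004), Nfkb2 (-0.0097), Nfkbiz (-0.10), Birc2 (-0.013), Tbk1 (-0.0003) and Icam1 (-0.032) had the other sign. Under RLE size factors, Nfkb1 (-0.0004) and Tbk1 (-0.001) had the other sign. Under blocked DESeq2 on protein-coding transcripts, Nfkb2 (-0.010), Nfkbiz (-0.11), Birc2 (-0.014), Rbck1 (-0.10), Ikbkb (0.030), Tbk1 (-0.0007) and Icam1 (-0.032) had the other sign. Under total counts as library sizes, Nfkbia (0.028), Tnip1 (0.029), Otulin (0.032), Birc3 (0.029), Traf3 (0.033), Traf4 (0.028) and Tab2 (0.019) had the other sign. Under edgeR with the replicate block, Nfkbiz (-0.087), Birc2 (-0.0027) and Icam1 (-0.021) had the other sign. Under edgeR on protein-coding transcripts, Nfkbiz (-0.010), Rbck1 (-0.12), Ikbkb (0.026), Tbk1 (-0.010) and Icam1 (-0.0084) had the other sign.

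The ranges below take together the main test with 1 library left out and blocked DESeq2 with 1 number left out. With 1 library or number left out, the log2 changes that took another sign at least once ran over these ranges: Nfkb1 -0.10 to 0.089, Nfkb2 -0.23 to 0.13, Rel -0.049 to 0.79, Rela -0.21 to 0.021, Nfkbia -0.12 to 0.048, Nfkbib -0.32 to 0.26, Nfkbid -0.15 to 0.71, Nfkbie -0.072 to 0.49, Nfkbiz -0.52 to 0.28, Tnfaip3 -0.44 to 0.061, Tnip1 -0.21 to 0.047, Cyld -0.023 to 0.21, Otulin -0.24 to 0.10, Birc2 -0.42 to 0.32, Birc3 -0.18 to 0.093, Traf1 -0.50 to 0.044, Traf3 -0.13 to 0.056, Traf4 -0.18 to 0.10, Traf5 -0.26 to 0.46, Traf6 -0.59 to 0.041, Rbck1 -0.064 to 0.18, Ripk1 -0.33 to 0.014, Map3k7 -0.12 to 0.16, Tab1 -0.21 to 0.030, Tab2 -0.12 to 0.0060, Tbk1 -0.033 to 0.050, Icam1 -0.32 to 0.20, Gadd45b -0.28 to 0.32.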
